A study of Mus musculus with 84 samples.

Results

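H3K27ac, the acetylation of lysine 27 on histone H3, was mapped by ChIP-seq in the colon epithelium of female (XX) C57BL/6 mice kept on a high-fat diet (HFD) or a low-fat diet (LFD). The 6 libraries, 3 per diet, were all those of this mark, sex and 20-week experiment among the 84 samples of the series. The labels give no other genotype or treatment. The mice were housed singly and started the diets at an age of 6 weeks, with 60% of the energy of the HFD and 10% of that of the LFD coming from fat. Epithelium was released from the colon with EDTA, so the libraries hold a mixture of epithelial cell types. The methods describe a purity check by staining for EpCAM, an epithelial antigen, and CD45, a leukocyte antigen, which put the isolated cells as mostly and not wholly epithelial. Each library was deposited as a list of peaks called by SICER, which joins neighbouring enriched windows of 200 bp into islands of variable length. The lists held between 38317 and 42852 peaks. They give no heights and no read counts, so the depth of the libraries is unknown, and the length covered by peaks is the only quantitative measure. A longer peak and a peak of greater height cannot be told apart here, nor can fewer cells of a type and less acetylation per cell.

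H3K27ac is laid down by the acetyltransferases p300 and CBP at promoters and enhancers in use. H3K4me1 marks enhancers whether they are active or poised, and an enhancer that carries H3K4me1 and gains H3K27ac is generally regarded as switched on. In the colon, such enhancers govern the renewal of the crypt, the absorptive and goblet cell programmes and the handling of lipids, bile acids and bacterial products. HNF4A, a nuclear receptor that binds fatty acids, and CDX2, a homeobox factor, are among the main factors that occupy them.

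The labels were checked first. H3K27ac at the start sites of Xist, the RNA that silences 1 X chromosome in female cells, covered 3400 to 3755 bp in the 6 libraries and 0 bp in 6 libraries of male mice. The female lists held 0 peaks on the Y chromosome, against 4 or 5 in each male list. All 10 markers of epithelium, among them Epcam, Cdh1, Krt8 and Cdx2, had a peak within 1 kb of a start site in all 6 libraries, as did 11 of 12 markers of absorptive colonocytes and 9 of 12 of goblet cells. Among the enteroendocrine markers this held for 1 of 12, Sct, and among the tuft cell markers for 1 of 10, Plcg2. Of 11 leukocyte markers found in the annotation 0 had such a peak in every library and 9 had it in none, including Cd3e and Csf1r. The counts without any promoter peak were 6 of 10 for fibroblasts, 7 of 8 for smooth muscle, 6 of 8 for endothelium, 7 of 8 for enteric neurons and glia and 3 of 6 for adipocytes. The acetylated length within 10 kb of the leukocyte markers summed to 13.1 to 17.3 kb on the HFD and 11.6 to 13 kb on the LFD. For smooth muscle markers the sums were 6.504 to 8.93 kb on the HFD and 4.13 to 5.4 kb on the LFD, for endothelium 13.5 to 14.9 and 12.3 to 13.4 kb, and for neurons and glia 4.8 to 5.2 and 3 to 4.6 kb. Most of the leukocyte sums came from Cd79a, Itgam and Coro1a, which had no promoter peak in any library. Pecam1, with a promoter peak in all 6 libraries, gave 11 to 12.5 kb of the endothelium sums. The diets did not overlap in these sums. They overlapped for fibroblast and adipocyte markers, at 8.6 to 14.8 and 13.2 to 14.6 kb and at 19.9 to 21.7 and 15.1 to 22.02 kb. The part of other cell types in the results below was not tested.

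The HFD lists covered more of the genome, a difference that cannot be told apart from one of sequencing depth, as also holds for the numbers of regions found on 1 diet. HFD replicates 1 to 3 covered 115.1, 120.6 and 108.9 Mb and the LFD replicates 104.1, 100.2 and 104.2 Mb, so the lowest HFD library lay above the highest LFD library. The means were 114.9 ± 5.83 Mb and 102.9 ± 2.29 Mb (SD, n = 3), a difference of 11.985 Mb or 11.7% (exact permutation test, two-sided, p = 0.1; 3 libraries against 3 cannot give a smaller value). The median peak was 2000 bp wide in each of the 6 libraries. Wide peaks of 10 kb or more numbered 1010, 1186 and 893 on the HFD and 768, 756 and 830 on the LFD, a mean difference of 31.2% (exact permutation p = 0.1). Narrow peaks of 600 bp or less numbered 2139 ± 102 on the HFD and 2097 ± 64.1 on the LFD (SD, n = 3, exact permutation p = 0.7). Genes with a peak within 1 kb of a start site of a protein-coding transcript numbered 12026 ± 114 on the HFD and 11889 ± 103 on the LFD, and the libraries of the diets overlapped (SD, n = 3, exact permutation p = 0.2). The X chromosome carried 809, 797 and 780 peaks on the HFD against 717, 718 and 774 on the LFD. As a share of all peaks this was 1.91% ± 0.0469 and 1.89% ± 0.0978 (SD, n = 3, exact permutation p = 0.7).

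**Figure D1:**
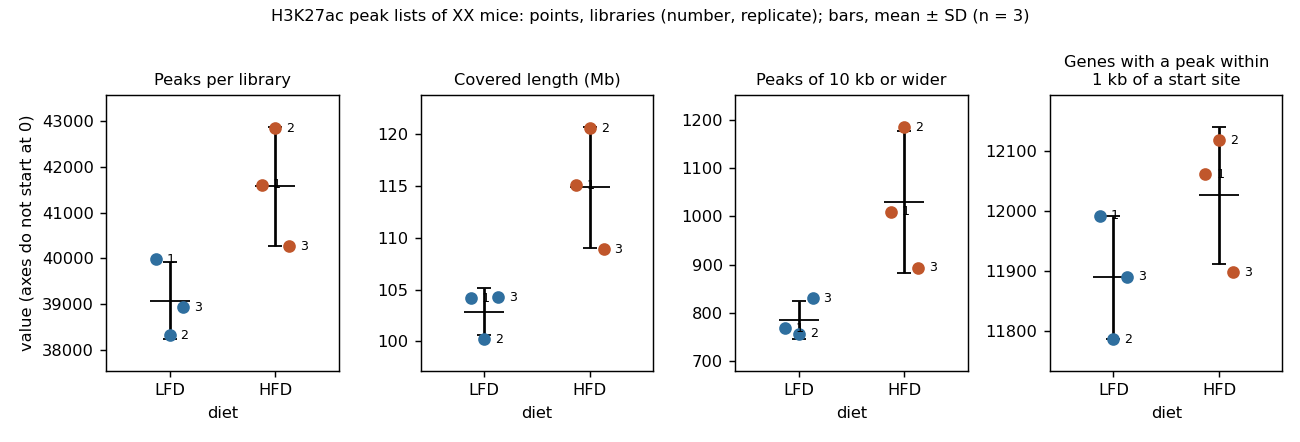
The 4 panels show peaks per library, covered length in Mb, peaks of 10 kb or wider and genes with a peak within 1 kb of a start site, for the 3 LFD (blue) and 3 HFD (orange) libraries, with bars for the mean ± SD on axes that do not start at 0. The diets do not overlap in the first 3 panels, where HFD replicate 2 is the highest library, and overlap in the fourth.

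Peaks that overlapped between the 6 lists were merged into 48175 regions. Of these, 24958 regions (51.8%) had a peak in all 6 libraries and 10005 had a peak in 1 library alone. The regions present in all 6 libraries held most of the acetylation. Those at promoters covered 47.2 ± 1.38 Mb on the HFD and 44.7 ± 0.385 Mb on the LFD, and those away from promoters 53.0 ± 2.18 Mb and 48.5 ± 1.07 Mb (SD, n = 3, exact permutation p = 0.1 for each). Of the 11.985 Mb by which the diets differed, 7.09 Mb lay in regions that every library shared. Pairs of libraries of 1 diet shared 0.668 of their covered bases on average (intersection over union, 6 pairs, 0.648 to 0.686), and pairs of different diets 0.661 (9 pairs, 0.637 to 0.680).

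**Figure D2:**
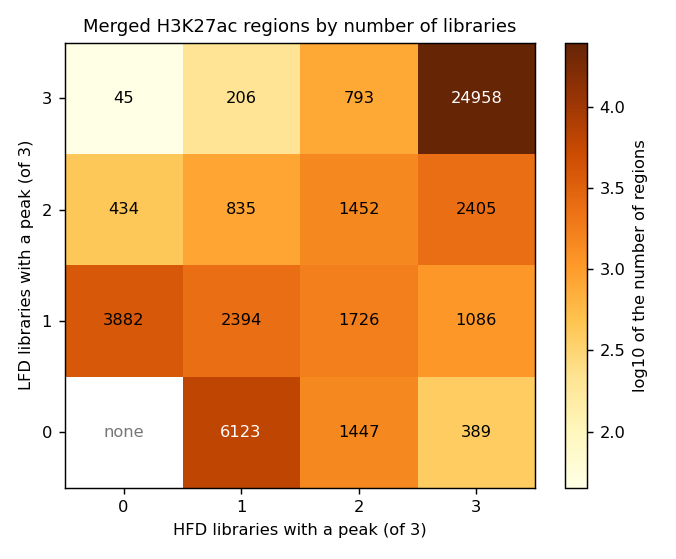
The grid gives the number of merged H3K27ac regions by the number of HFD libraries (horizontal) and LFD libraries (vertical) that had a peak, with a log10 colour scale. The corner at 3 HFD and 0 LFD libraries holds 389 regions, the corner at 0 and 3 holds 45, and the corner at 3 and 3 holds 24958.

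The longest of the shared regions are described here although they were picked after their values were seen. The longest was at the Hoxa cluster, whose homeobox genes set position along the body axis. It was nearest to Hoxa9 (chr6:52138401-52226200 in mm9), and 83400 to 86600 bp of it was acetylated on the HFD and 83200 to 84200 bp on the LFD. The next was at the Hoxb cluster, nearest to Hoxb7 (chr11:96110801-96183000), with 58000 bp in HFD replicate 2 and 67800 to 71000 bp in the other 5 libraries. At Hnf4a (chr2:163354201-163423400), the gene of the nuclear receptor described above, 65800, 66200 and 63800 bp were acetylated on the HFD and 55400, 59600 and 64400 bp on the LFD. The values of the diets overlapped there. Lrig1, which encodes a membrane protein that restrains ErbB receptors in stem cells, followed with means of 62933 bp on the HFD and 59133 bp on the LFD. At Myh9, a non-muscle myosin heavy chain, the means were 55067 and 54933 bp. At Muc13, a membrane mucin of the brush border, the means were 53333 and 52333 bp.

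A region was called exclusive to a diet when each of the 3 libraries of that diet had a peak in it and the other diet had no peak there. There were 389 HFD-exclusive regions, 0.807% of all regions, and 45 LFD-exclusive regions, 0.0934%. The rule fixes which diet carries these regions, so their presence in the 6 libraries is a description and has no test. They were short. The mean acetylated length per carrying library had a median of 1267 bp in HFD-exclusive regions, with a range of 400 to 3333 bp, and of 1200 bp in LFD-exclusive regions, against 2667 bp in regions of all 6 libraries. In all, HFD-exclusive regions covered 0.495, 0.523 and 0.483 Mb of the 3 HFD libraries, and LFD-exclusive regions 0.0580, 0.0514 and 0.0576 Mb of the LFD libraries. With 2 or more libraries of 1 diet and none of the other, the counts were 1836 and 479. Leaving out any 1 library, with all those left of the diet required, gave 730 to 1018 and 90 to 219.

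Most exclusive regions lay away from promoters. Of the HFD-exclusive regions 30 (7.71%) came within 1 kb of a start site, 196 had their centre in an intron and 147 between genes, and the rest in exons. Of the LFD-exclusive regions 4 lay at promoters, 23 in introns and 18 between genes. Promoters made up 9.06% of the 2561 regions that had a peak in 3 libraries in other combinations, and 42.5% of the regions of all 6 libraries. The former serve as the comparison because they were seen equally often. They lean to the HFD themselves, as 1726 were in 2 HFD libraries and 1 LFD library and 835 in 1 and 2. Subtracting their share, as below, can therefore also remove part of a diet difference. The centre lay within 50 kb of a start site for 294 HFD-exclusive regions, nearest to 288 different genes, and for 35 LFD-exclusive regions, nearest to 35. The nearest gene is named below as a landmark; whether the region acts on it was not measured.

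Sequences are shown for the longest exclusive regions that held a match to the AP-1 motif TGANTCA, the site bound by Fos and Jun dimers, in their central 1000 bp. Of the 12 longest HFD-exclusive regions within 50 kb of a start site the first 4 with a match are given, and of the 6 longest LFD-exclusive regions the only 2. Each run is 200 bases of the plus strand of the mm9 reference around the match nearest to the centre, and the capitals mark that match (the Rab7 run holds another match at its first base, left in lower case). The first lies in an intron of Capzb, the next in introns of Gpd1l and Dpysl2, and the fourth upstream of Tfrc.

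Capzb, HFD-exclusive, chr4:138805959-138806158: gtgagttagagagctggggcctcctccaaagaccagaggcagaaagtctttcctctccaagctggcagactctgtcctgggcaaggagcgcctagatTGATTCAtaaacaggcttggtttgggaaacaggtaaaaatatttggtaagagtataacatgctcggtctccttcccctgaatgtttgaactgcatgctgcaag

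Gpd1l, HFD-exclusive, chr9:114836569-114836768: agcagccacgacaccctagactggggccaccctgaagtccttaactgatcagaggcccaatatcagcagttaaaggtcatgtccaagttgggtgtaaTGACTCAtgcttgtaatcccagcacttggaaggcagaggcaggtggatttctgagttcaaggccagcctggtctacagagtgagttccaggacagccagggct

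Dpysl2, HFD-exclusive, chr14:67478678-67478877: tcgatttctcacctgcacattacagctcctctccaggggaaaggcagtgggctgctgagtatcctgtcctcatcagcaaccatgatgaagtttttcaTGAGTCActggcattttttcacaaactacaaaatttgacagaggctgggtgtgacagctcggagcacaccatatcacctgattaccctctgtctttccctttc

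Tfrc, HFD-exclusive, chr16:32603992-32604191: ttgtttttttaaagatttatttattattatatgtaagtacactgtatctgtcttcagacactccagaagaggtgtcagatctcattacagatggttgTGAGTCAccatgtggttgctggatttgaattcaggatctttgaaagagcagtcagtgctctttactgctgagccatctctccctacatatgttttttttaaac

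The LFD-exclusive examples lie upstream of Rab7 and in an intron of Trim33.

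Rab7, LFD-exclusive, chr6:88006996-88007195: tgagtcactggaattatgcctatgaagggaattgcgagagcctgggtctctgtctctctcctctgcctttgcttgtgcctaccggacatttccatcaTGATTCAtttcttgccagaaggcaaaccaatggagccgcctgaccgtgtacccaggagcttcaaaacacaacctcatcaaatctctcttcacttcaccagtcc

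Trim33, LFD-exclusive, chr3:103093375-103093574: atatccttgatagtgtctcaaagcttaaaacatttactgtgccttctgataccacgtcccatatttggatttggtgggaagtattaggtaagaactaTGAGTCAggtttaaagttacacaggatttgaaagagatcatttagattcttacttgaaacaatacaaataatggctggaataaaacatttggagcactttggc

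The longest HFD-exclusive region lay in an intron of Capzb, 16.7 kb downstream of the nearest start site (chr4:138803401-138808600). Capzb encodes the beta subunit of the protein that caps actin filaments. Peaks covered 2800, 3600 and 3600 bp of the region in HFD replicates 1 to 3, as 1 peak in the first and as a pair in the others. In male mice the same region had a peak in 3 of 3 HFD and 2 of 3 LFD libraries. The next region lay between genes, 35.1 kb from Spry2 (chr14:106258801-106263000), which encodes a feedback inhibitor of receptor tyrosine kinase signalling. It was covered over 4200, 3400 and 1600 bp and was found in 2 male libraries of each diet. The region in an intron of Pawr, a gene of a pro-apoptotic protein, lay 48.9 kb from the start site (chr10:107816201-107820000) and was covered over 3400, 2600 and 2600 bp. It had a peak in 2 of 3 male HFD libraries and in 0 of 3 male LFD libraries.

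The region in an intron of Gpd1l, a glycerol-3-phosphate dehydrogenase-like gene, was covered over 2400, 3400 and 2200 bp (chr9:114834801-114838600). The region 40.97 kb upstream of Atp5o, a subunit of the mitochondrial ATP synthase, was covered over 2000, 3000 and 2400 bp (chr16:91971401-91974400). The region 21.9 kb from Slc5a6, which encodes a sodium-dependent transporter of biotin and pantothenate, was covered over 2200, 3400 and 1600 bp (chr5:31321001-31325200). HFD replicate 2 carried the longest stretch at each of these 3 regions. The region 4.80 kb upstream of Tfrc, the transferrin receptor through which cells take up iron, was covered over 2200, 3000 and 1400 bp (chr16:32602401-32606000). At Eif2ak4, which encodes the amino acid sensing kinase GCN2, the intronic region was covered over 2400, 2200 and 2000 bp (chr2:118230001-118232800). It was the most even of the 12 and carried HNF4A peaks in 2 HFD and 2 LFD libraries of male mice.

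The remaining 4 of the 12 lay in introns of Dpysl2, Lpar1 and Tnn and upstream of Dnahc6. Dpysl2 encodes a microtubule-binding protein, Lpar1 a receptor of lysophosphatidic acid, Tnn a tenascin of the extracellular matrix and Dnahc6 an axonemal dynein. Their mean acetylated lengths were 2467 ± 987, 2133 ± 1528, 2067 ± 833 and 2133 ± 902 bp (SD, n = 3). The spread was widest at Lpar1, with 800 bp in replicate 1 and 3800 bp in replicate 3.

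The longest LFD-exclusive region lay in an intron of H2afy, the gene of the histone variant macroH2A1, and was covered over 2400, 2600 and 1000 bp in LFD replicates 1 to 3 (chr13:56214801-56217800). The region 11.8 kb upstream of Rab7, a GTPase of late endosomes, was covered over 2600, 2200 and 1200 bp (chr6:88005801-88008400). In male mice it had a peak in 3 of 3 HFD libraries and in 1 of 3 LFD libraries. The region in an intron of Gsk3b, the kinase that marks beta-catenin for degradation, was covered over 3000, 1200 and 1600 bp (chr16:38094801-38098200). At Trim33, which encodes a ubiquitin ligase that acts on Smad4, the values were 1800, 2200 and 1800 bp (chr3:103092201-103094600), and the region had a peak in all 6 male libraries of the 20-week experiment. The last of the 6 lay in introns of Clasp2, a microtubule plus-end protein, and of Galnt7, an enzyme of O-linked glycosylation, with means of 1733 ± 462 and 1467 ± 577 bp (SD, n = 3).

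**Figure D3:**
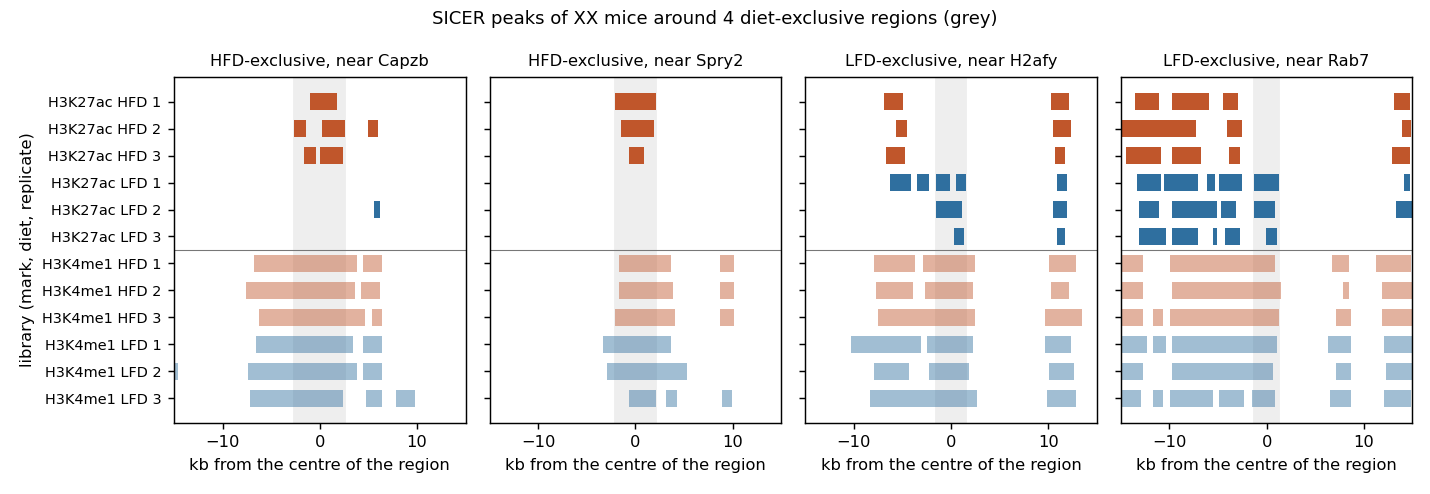
Bars show SICER peaks within 15 kb of the centres of the HFD-exclusive regions near Capzb and Spry2 and the LFD-exclusive regions near H2afy and Rab7 (grey bands), 1 row per library, with H3K27ac above the line and H3K4me1 below it. H3K27ac is present in the band in libraries of 1 diet only, as the rule requires, whereas H3K4me1 peaks reach into the band in all 6 libraries of that mark at all 4 regions.

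At promoters, the 30 HFD-exclusive regions included Spib (chr7:51786201-51789400), which encodes an ETS factor of M cells and B cells, with 1200, 1400 and 2000 bp. The Spib region had a peak in 0 of 17 male H3K27ac libraries. They also included Adipor2, an adiponectin receptor, Cyp2c70, a bile acid hydroxylase, Ugt1a2, of the glucuronosyltransferase locus whose start sites share exons, and Bhlha15, a factor of secretory cells. These 5 were picked after their values were seen. The 4 LFD-exclusive promoter regions were at Tmbim1, Espn, Trim24 and Slc9a4. Espn encodes espin, which bundles the actin of microvilli, and Slc9a4 a sodium-proton exchanger. In male mice of the same experiment the Trim24 region had a peak in 3 HFD and 3 LFD libraries, and the Slc9a4 region in 3 and 2.

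Genes with a pair of HFD-exclusive regions nearest to them included Ank3, Mmd, Sgms1, Slc24a3 and Tmem37. Ank3 encodes ankyrin-G of the lateral membrane and Sgms1 a sphingomyelin synthase. The Slc24a3 regions lay 37.1 and 39.7 kb inside the gene and were covered over 1200, 2000 and 1400 bp and over 1600, 800 and 2400 bp. The Tmem37 regions, which lie next to each other (chr1:121959601-121961600 and chr1:121962001-121963400), were covered over 1200, 2000 and 1400 bp and over 1200, 1400 and 1400 bp. None of the LFD-exclusive regions shared a nearest gene with each other, and a further gene was nearest to a region of each diet.

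Of the genes on the 24 lists of cell types and functions, 6 were the nearest gene of an exclusive region, all HFD-exclusive. They were 1.83% of the 328 listed genes found, against 1.45% of all protein-coding genes and 2.19% of the genes tested below for acetylated length. Acot1, which encodes a cytosolic acyl-CoA thioesterase, had a region 10.05 kb upstream (chr12:85339001-85341800) with 2800, 1400 and 1200 bp, found in 3 of 3 male HFD and 2 of 3 male LFD libraries. Id2, an inhibitor of basic helix-loop-helix factors, had a region 44.1 kb upstream with 2200, 2200 and 1400 bp. B2m, the light chain of MHC class I, had a region of 1200, 1400 and 1400 bp inside the neighbouring Patl2. Fasn, the fatty acid synthase, had a region of 600, 1000 and 1800 bp inside the neighbouring Ccdc57, with a peak in 0 of 6 male libraries of the 20-week experiment. The others were Nkd1, an inhibitor of Wnt signalling, with a mean of 1067 ± 231 bp, and Esam, an adhesion molecule, with 733 ± 306 bp (SD, n = 3).

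The exclusive regions were then looked up in libraries that had no part in choosing them. Female H3K4me1 libraries came from the same experiment and shared input controls with the H3K27ac libraries. Of the HFD-exclusive regions 345 (88.7%) carried H3K4me1 in 3 of 3 HFD libraries and 330 (84.8%) in 3 of 3 LFD libraries, in which H3K27ac was not called there. Among all regions, 88.7% carried H3K4me1 in 3 of 3 HFD libraries and 87.0% in 3 of 3 LFD libraries. At regions of 3 libraries in other combinations these shares were 89.3% and 87.6%. H3K4me1 was absent from all LFD libraries at 11 HFD-exclusive regions (2.83%). This compares with 4.48% of all regions and 3.05% of regions of 3 libraries in other combinations. Per library, a peak of H3K4me1 was found at 92.8% ± 1.43 of HFD-exclusive regions on the HFD and at 91.6% ± 0.594 on the LFD (SD, n = 3, two-sided exact permutation test, p = 0.4; adjusted over 6 comparisons of the kind, 0.75). For LFD-exclusive regions the shares were 88.1% ± 1.28 and 88.9% ± 3.85 (SD, n = 3, exact permutation p = 1; adjusted 1).

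In male mice of the same experiment, HFD-exclusive regions had an H3K27ac peak in 41.1%, 64.8% and 66.6% of cases in the HFD replicates and in 57.8%, 43.2% and 48.3% in the LFD replicates. HFD replicate 1 was the lowest of the 6 libraries, and the diets overlapped. The means were 57.5% ± 14.2 and 49.8% ± 7.43 (SD, n = 3, exact permutation p = 0.5; adjusted 0.75). At regions of 3 libraries in other combinations the shares were 56.4% and 51.1% and at all regions 71.9% and 70.3%, and after subtraction of the former the difference of 7.71 points became 2.47 (exact permutation p = 0.3). LFD-exclusive regions were found at 56.3% ± 3.39 in males on the HFD and at 54.8% ± 5.59 on the LFD (SD, n = 3, exact permutation p = 1; adjusted 1). By region, 91 HFD-exclusive regions had a peak in 3 of 3 male HFD libraries and 82 in 3 of 3 male LFD libraries (23.4% and 21.1%, against 24.1% and 22.7% of the regions of 3 libraries in other combinations). In male mice 3 HFD-exclusive regions (0.771%) were present in 3 HFD and 0 LFD libraries, against 0.898% of regions of 3 libraries in other combinations and 0.453% of all regions. Of the LFD-exclusive regions 0 of 45 showed the reverse, against 0.390% and 0.176%. One lay 25.05 kb upstream of Trim29 (chr9:43092601-43095000) and another 55.7 kb from the predicted gene Gm16833 (chr9:9315601-9317200), and both were found in 3 of 5 recipients on the HFD and 0 of 6 on the LFD. The region near the predicted gene Gm5121 (chr9:57147401-57150000) was found in 1 of 5 and 4 of 6.

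The recipients were male germ-free mice of a further experiment, colonised with bacteria from HFD-fed or LFD-fed donors and fed the HFD or the LFD for 5 weeks. HFD-exclusive regions of female mice had a peak in 50.9% to 63.8% of cases in the 5 recipient libraries on the HFD and in 33.7% to 53.7% in the 6 on the LFD, with means of 59.0% ± 5.32 and 42.8% ± 7.29 (SD). The difference was 16.2 percentage points (two-sided exact permutation test within donor bacteria, p = 0.005, the smallest value possible; adjusted over 6 comparisons, 0.03). The diets also differed at other regions of female mice. At regions with 3 libraries in other combinations the recipients on the HFD were 14.5 points higher (exact permutation p = 0.01) and at all regions 6.97 points higher (exact permutation p = 0.015). After subtraction of the share at the former, 1.63 points remained (exact permutation p = 0.395). Because those regions lean to the HFD, the subtraction can also remove part of a diet difference. LFD-exclusive regions were found at 47.1% ± 9.22 on the HFD and 37.8% ± 9.11 on the LFD (SD, n = 5 and 6, exact permutation p = 0.16; adjusted 0.48). After the same subtraction the difference was -5.20 points (exact permutation p = 0.025, not adjusted). This value lies outside the 6 adjusted comparisons, rests on 45 regions and carries the lean of the subtracted class.

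**Figure D4:**
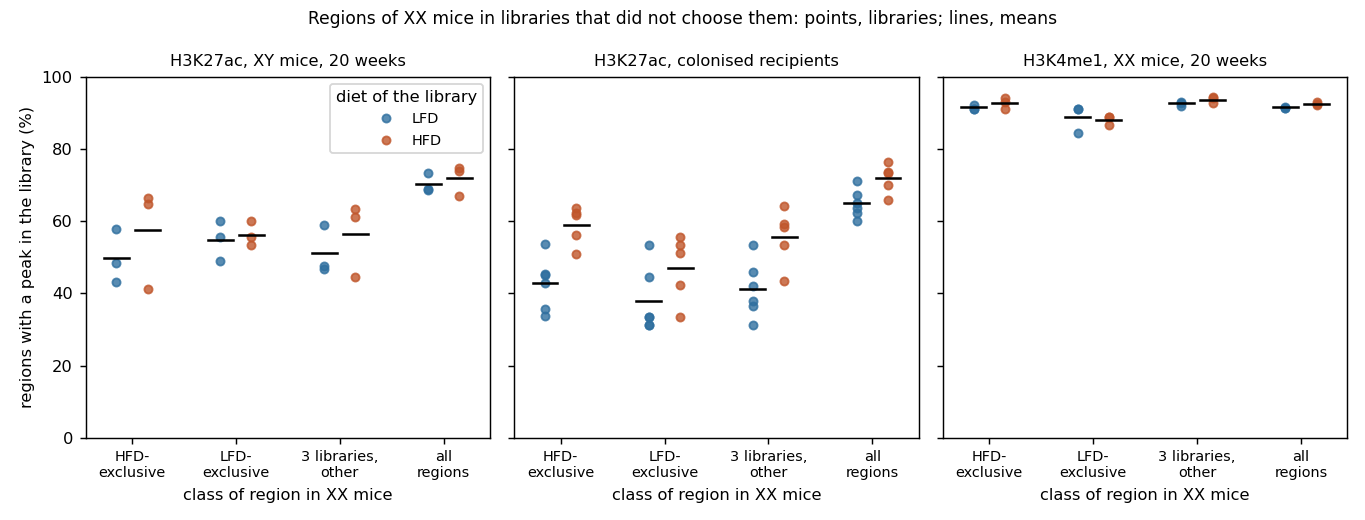
Each point is 1 library and gives the percentage of regions with a peak in it, on an axis from 0 to 100%, for HFD-exclusive, LFD-exclusive, other 3-library and all regions of female mice, with lines for the means. In recipients the HFD libraries (orange) lie higher than the LFD libraries (blue) on average in every class, and H3K4me1 of female mice lies at or above 84.4% in every class and library.

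Across all 17 male H3K27ac libraries, 9 HFD-exclusive regions and 1 LFD-exclusive region were found in none, and 5 and 0 were found in all. For all regions these states made up 4.70% and 42.7%, and for regions of 3 libraries in other combinations 1.68% and 1.33%. HNF4A, mapped in 4 libraries of male mice, had a peak at 142 HFD-exclusive regions (36.5%) and 13 LFD-exclusive regions (28.9%). The share was 31.9% at regions of 3 libraries in other combinations and 71.8% at regions of all 6 libraries.

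Motifs were counted on both strands of the central 1000 bp of each region. TGANTCA, which is its own reverse complement, occurred in 137 HFD-exclusive regions (35.2%) and 12 LFD-exclusive regions (26.7%), in 32.2% of regions of 3 libraries in other combinations and in 29.1% of all regions. A KLF motif, GGGTGTGG, occurred in 51 HFD-exclusive regions (13.1%), in 4 LFD-exclusive regions (8.89%), in 11.6% of regions of 3 libraries in other combinations and in 11.5% of all regions. For the CDX2 motif TTTATNGC these were 63 (16.2%), 8 (17.8%), 14.6% and 12.4%. CAAAGTCCA, a core of the HNF4A motif, occurred in 15 HFD-exclusive regions (3.86%), in 0 LFD-exclusive regions, in 2.69% of regions of 3 libraries in other combinations and in 2.67% of all regions. The median GC content was 45.6% in HFD-exclusive regions, 45.5% in LFD-exclusive regions and 46.7% in all regions. These are descriptions with no test.

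To compare the diets gene by gene, the acetylated length within 10 kb of the start sites of each protein-coding gene was tested for 13782 genes with acetylation in at least 3 libraries. No gene passed an adjusted p of 0.05 with limma in either direction (0% called), and the smallest adjusted p was 0.458. At an unadjusted p under 0.05, 1027 genes (7.45%) had longer acetylation on the HFD and 112 (0.813%) shorter. The diets did not overlap at 1325 genes (9.61%) with more and 170 (1.23%) with less acetylation on the HFD. The median gene had 0.267 kb more on the HFD. When each library was scaled to its total covered length, the median became -0.14 kb and the counts at an unadjusted p under 0.05 became 349 and 527, so the direction of the general difference turned with the scaling. In simulated data of the same size, 10 of 93 genes with a planted difference of 4 kb and 0 of 107 with 2 kb were recovered.

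The smallest p-values in each direction belonged to genes that did not pass. Tex19.1, a germline gene, had 6, 5.8 and 6.2 kb on the HFD and 2.8, 3.2 and 3 kb on the LFD, a difference of 3 kb with an SE of 0.402 (limma, adjusted p = 0.458). Clec10a, a macrophage lectin, had 1.6 kb in each HFD library and 0.4, 0 and 0 kb on the LFD. Thop1, an oligopeptidase, had 7.62, 8.82 and 9.42 kb against 4.62, 4.62 and 4.22 kb. In the other direction, the predicted gene Gm20547 had 1.15, 1.75 and 1.35 kb on the HFD and 3.35, 2.75 and 3.54 kb on the LFD (limma, adjusted p = 0.474). Slc9a4 had 0 kb in each HFD library and 0.6, 1 and 1 kb on the LFD, all of it in the exclusive promoter region given above. Atp8b2, a phospholipid flippase, had 1, 1.4 and 1.2 kb against 3, 2.2 and 2.6 kb. At all 6 genes the diets did not overlap, which their choice by the smallest p favours.

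Genes of fatty acid oxidation and PPAR signalling showed the highest median difference of the 13 lists of functions. The lists were chosen with earlier results of these data known, so this place is a description and has no test. PPARs are nuclear receptors that fatty acids activate, and their targets import, bind and oxidise fatty acids. Of 23 genes on the list 21 were tested. At an unadjusted p under 0.05, 8 had more acetylated length on the HFD and 0 had less, against the 7.45% and 0.813% of all genes, and 0 passed adjustment. Their median difference was 1.13 kb, and 0.686 kb after scaling to the covered length, beside 0.267 and -0.14 kb for all genes. The list summed to 203.5, 196.1 and 200.2 kb on the HFD and 174.9, 157.0 and 171.9 kb on the LFD, without overlap. This was not particular to the list, as the total covered length did not overlap either. Nor did the sums for intestinal transcription factors, the AP-1 and ATF family, growth factor and TGF-beta signalling, cell cycle and xenobiotic metabolism. Among the markers of other cell types, scaled median differences were 0.836 kb for smooth muscle, 0.423 kb for neurons and glia and 0.341 kb for adipocytes, over 4, 2 and 3 genes tested. For endothelium, leukocytes and fibroblasts they were 0.0127, -0.0657 and -0.792 kb. Actg2, a smooth muscle actin, had 4.4 ± 0.6 kb on the HFD and 2.73 ± 0.611 kb on the LFD (SD, n = 3). Lipe, the hormone-sensitive lipase, had 7.03 ± 1.12 and 4.53 ± 0.503 kb (SD, n = 3). Both had the largest difference of their lists, and Actg2 had no promoter peak in any library. Of the smooth muscle markers tested 3 were higher on the HFD and 1 lower, Cnn1, with 0.8 kb and 1 kb. All 3 adipocyte markers tested were higher on the HFD, Cidec with 10.4 and 10.3 kb. The part of these cell types in the values of the fatty acid list was not tested. The windows of Hadha and Hadhb are nearly the same, so these genes count as 1 locus.

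Hadha and Hadhb encode the subunits of the mitochondrial trifunctional protein, which carries out the last steps of the oxidation of long-chain fatty acids, and share a promoter. Hadha had 12.7, 11.5 and 12.9 kb on the HFD and 7.502, 8.502 and 8.302 kb on the LFD, without overlap. The difference was 4.27 kb with an SE of 0.655 (limma, adjusted p = 0.458), and 3.18 kb after scaling. Plin2, which coats lipid droplets, had 12.4, 11.8 and 11.6 kb against 10.2, 9.6 and 9.77 kb. Ppargc1a, a coactivator of mitochondrial genes, had 7.64, 9.24 and 9.04 kb against 7, 6.64 and 6 kb. Angptl4, a secreted inhibitor of lipoprotein lipase, had 11.6, 8 and 7.8 kb against 7.4, 3.6 and 6 kb, with HFD replicate 1 well above the others. Acot1, described above for its exclusive region, had 3.41, 2.15 and 2.2 kb against 1.8, 1.2 and 1 kb. That region reaches into the window of Acot1, and the rule leaves no LFD acetylation in it. Part of the Acot1 difference was thus fixed by the choice of the region. Ppard, a PPAR that responds to dietary fatty acids, had 32.3 ± 2.11 kb against 28.1 ± 1.80 kb, and Ucp2, a mitochondrial carrier, 10.4 ± 0.693 kb against 8.47 ± 0.503 kb (SD, n = 3). The diets did not overlap at any of the 8 genes. They were picked by their p in these same libraries, so this adds no support. Among all genes 9.61% had more acetylation on the HFD without overlap. Other members stood close to equal, such as Acadm, the medium-chain acyl-CoA dehydrogenase, with 3 kb on the HFD and 3.07 kb on the LFD. Fabp1 and Cd36 had no acetylation in the window in any library.

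**Figure D5:**
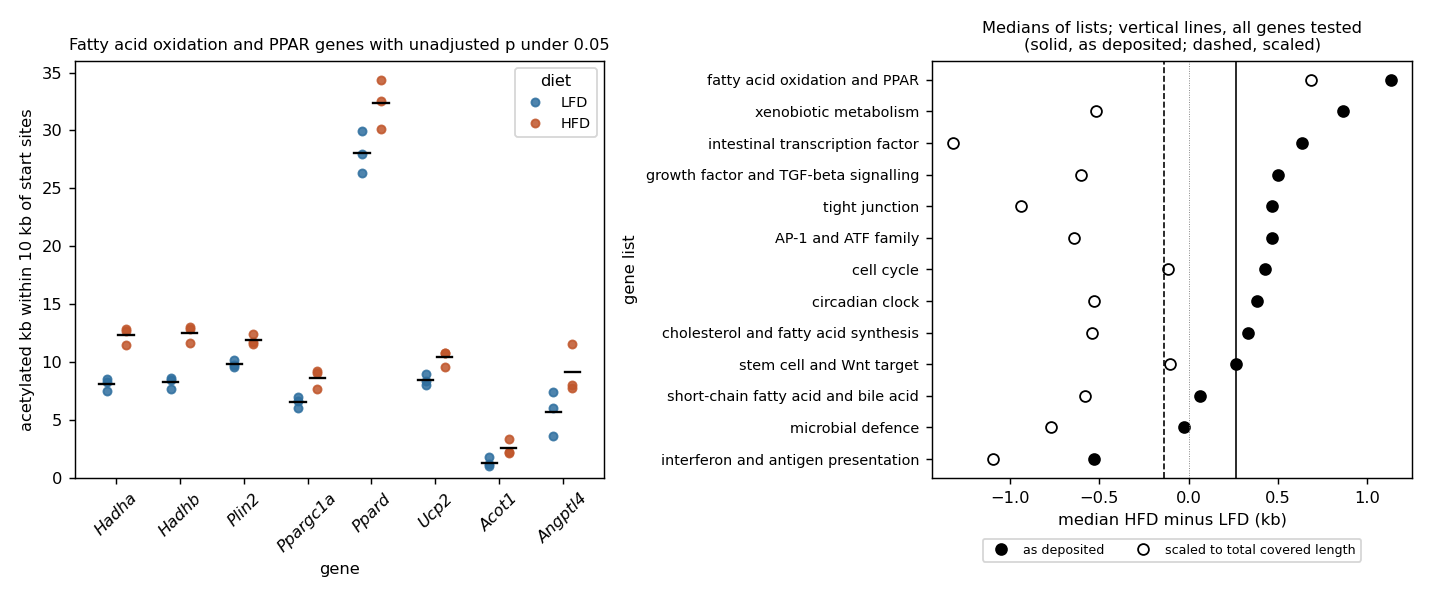
Left, acetylated kb within 10 kb of start sites in each library (points, HFD orange and LFD blue, with lines for means) for the 8 fatty acid oxidation and PPAR genes with an unadjusted p under 0.05, of which none passed adjustment. Right, median HFD minus LFD difference in kb of the 13 lists of functions, filled as deposited and open after scaling to covered length. Lines show all genes. The fatty acid list is the highest on both scales, at 1.13 and 0.686 kb, and no other list of the 13 is above 0 after scaling. The smooth muscle markers, not drawn, had 0.836 kb after scaling. The lists were chosen with earlier results of these data known.

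The list of interferon and antigen presentation genes had the lowest median difference of the lists of functions, -0.53 kb, and -1.096 kb after scaling. The mean was lower on the HFD at 11 of 15 genes, against 3946 of 13782 among all genes tested. Of these 11 genes 1, Oas1a, had an unadjusted p under 0.05 with limma, as had B2m in the other direction. The MHC class II genes, whose products present bacterial and food peptides, varied from library to library. Cd74, the class II invariant chain, had a promoter peak in 3 of 3 LFD and 0 of 3 HFD libraries. Every library had acetylation within 10 kb of its start sites, however. The lengths were 2.4, 2 and 3 kb on the LFD and 1.4, 2 and 1.6 kb on the HFD, so the diets overlapped. H2-Ab1 and H2-Eb1 had one in LFD replicates 1 and 3 and in no other library, and H2-Aa in LFD replicate 3 alone. H2-Eb1 had 7.57, 2 and 6.37 kb of acetylation on the LFD and 3.37, 2 and 2.8 kb on the HFD, so LFD replicate 2 lay with the HFD libraries. Ciita, the class II transactivator, had 7.96, 3.96 and 9.19 kb on the LFD and 4.6, 7.16 and 4.6 kb on the HFD. Ptprc, the gene of the leukocyte antigen CD45, had a promoter peak in LFD replicate 3 and in no other library, and the part of leukocytes in these values was not tested. The class I chain B2m had 5.58, 6.18 and 4.78 kb on the HFD and 4.4, 3.6 and 4 kb on the LFD, and Oas1a, an antiviral enzyme, 1.4, 0.8 and 0.8 kb and 1.4, 1.8 and 2.6 kb. The diets did not overlap at B2m, and at Oas1a the difference turned to 1.53 kb in a window of 50 kb.

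Other lists held few genes at an unadjusted p under 0.05, a level that 7.45% of all genes reached with more and 0.813% with less acetylation on the HFD. At that level 4 of 19 intestinal transcription factors had more and 0 less acetylation on the HFD, led by Hnf4g, the paralogue of Hnf4a. Hnf4g had 14.4, 15.8 and 13.2 kb on the HFD and 11, 12.6 and 10 kb on the LFD. Creb3l3, a factor of lipid metabolism, had 12.5 ± 1.102 kb and 10 ± 1.31 kb (SD, n = 3). The median difference of this list was 0.638 kb and turned to -1.32 kb after scaling. In growth factor and TGF-beta signalling, Bmpr1a, a receptor of bone morphogenetic proteins that restrain crypt proliferation, had 12.7, 14.1 and 10.1 kb on the HFD and 8.13, 6.80 and 7.53 kb on the LFD (difference 4.84 kb, SE 1.03, limma, adjusted p = 0.474), and was 1 of 22 members. Erbb2, the next member, had 16.4 ± 0.523 and 14.4 ± 1.43 kb (SD, n = 3). Among stem cell and Wnt target genes, 1 of 15 was in this class, the crypt receptor Ephb2, with 15.5 ± 1.14 kb on the HFD and 12.9 ± 0.987 kb on the LFD (SD, n = 3). Znrf3, which removes Wnt receptors, followed with 5.33 and 4.20 kb.

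In the tight junction list 2 of 16 were in the class, Cldn4 with 15.3 ± 0.502 kb and 13.5 ± 0.231 kb and Tjp1, the scaffold ZO-1, with 8.03 ± 0.379 kb and 6.00 ± 1.57 kb (SD, n = 3). In the microbial defence list the mean was lower on the HFD at 7 of 14 genes and higher at 6. At an unadjusted p under 0.05 with limma 1 was lower, the peptidoglycan sensor Nod2. Nod2 had 4, 4.2 and 4.2 kb on the HFD and 5.4, 5.2 and 5 kb on the LFD. Nos2, the inducible nitric oxide synthase, had 0, 1.8 and 0 kb on the HFD and 1.6, 1.2 and 3.4 kb on the LFD. Abcg2, an efflux pump of the xenobiotic list, had 7.07 ± 0.462 kb and 4.47 ± 1.51 kb, and Cyp2c55 10.47 ± 0.902 and 8.73 ± 1.21 kb (SD, n = 3). In cholesterol and fatty acid synthesis, Elovl6, an elongase, had 9.33 kb on the HFD and 7.53 kb on the LFD. Of the AP-1 and ATF family, Atf4, of the integrated stress response, had 12.7 ± 1.63 and 9.93 ± 0.762 kb (SD, n = 3), and Mafk had 16.7 and 15.1 kb, with a scaled difference of -0.12 kb. The clock genes Tef and Clock had 10.1 and 8.20 kb on the HFD and 8.40 and 6.73 kb on the LFD. For Slc16a1, the butyrate transporter MCT1, the values were 11.1 and 9.27 kb, and for the bile acid and conjugate exporter Abcc2 they were 2.33 and 1.20 kb. Of 16 cell cycle genes 0 were in the class, and Mcm5 and Ccnb1 had 1.80 and 3.81 kb on the HFD and 1.27 and 2.40 kb on the LFD.

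The effect of diet in female mice was compared with that in male mice by the interaction of sex and diet over the 12 libraries. No gene of 14154 tested passed an adjusted p of 0.05 with limma (0%), and at an unadjusted p under 0.05 there were 592 genes with a larger and 149 with a smaller difference in females. After scaling to the covered length these counts became 300 and 422, and without HFD male replicate 1, 368 and 247. At Hadha the diet difference was 3 kb larger in females, and at Thop1 2.07 kb larger, and neither passed adjustment (limma, adjusted p = 0.907 and 0.937).

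RNA-seq was taken from the recipients, whose cells were scraped from the colon and not released with EDTA, and expression arrays that the study ran on mice of the 20-week diets were not used here. Of 15716 genes tested, 0 passed an adjusted p of 0.05 for diet with edgeR (0%), and of 19477 tested with DESeq2 2 were higher and 2 lower. At an unadjusted p under 0.05 with edgeR 184 (1.17%) were higher on the HFD and 158 (1.01%) lower. Of 235 tested genes nearest to HFD-exclusive regions, 0 were higher and 1 lower at that level, Prg4, a lubricating proteoglycan. Their median log2 ratio of HFD to LFD was -0.03, and that of 29 genes nearest to LFD-exclusive regions alone was -0.05. Tfrc had 84.0 ± 40.9 CPM on the HFD and 89.8 ± 21.4 CPM on the LFD (SD, n = 6), and Capzb 322.5 ± 41.0 and 334.2 ± 31.3 CPM (SD, n = 6).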

How the data were processed

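Colon epithelium of female mice was profiled by H3K27ac ChIP-seq in 3 libraries per diet, with antibody ab4729. The authors aligned reads to mm9 with Bowtie 0.12.8, removed duplicates with Picard 1.110 and called peaks per library with SICER (window 200 bp, gap 200 bp, FDR 0.001) against input libraries. The deposited lists hold start and end positions and no score, so depth is unknown and a read-count model such as the one the authors used could not be run. For the recipients, the authors deposited raw read counts per gene from STAR 2.5 and featureCounts 1.5.0-p1, with totals of 39.9 to 48.0 M reads per library. Expression arrays of mice on the same diets and other sequencing of the study were not used here, and some results for single genes are not reported.

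Peaks overlapping by 1 bp or more were merged over the 6 lists. Protein-coding start sites came from GENCODE vM1 on mm9, promoters were regions within 1000 bp of one, and the nearest gene was sought within 50 kb. Acetylated length within 10 kb of start sites was tested with limma 3.58.1 (moderated test with mean-variance trend, Benjamini-Hochberg adjustment), and RNA with edgeR 4.0.16 (TMM, filterByExpr, quasi-likelihood test, bacteria as covariate) in R 4.3.3, with DESeq2 1.42.0 as an alternative. Exact permutation tests over libraries, two-sided, compared the shares of regions. Python 3.11.15, numpy 2.4.6 and matplotlib 3.10.9 were used. Both models were tested on simulated data. For RNA, 77 of 97 genes changed by 3-fold and 17 of 103 changed by 1.5-fold were recovered. The paper calls the libraries of a group biological replicates but does not state whether each came from a single mouse or a pool. The p-values measure the spread between these libraries.

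Genes were named by rule: the nearest genes of the 12 longest HFD-exclusive and 6 longest LFD-exclusive regions, genes nearest to 2 or more HFD-exclusive regions, the 3 smallest limma p-values per direction, list members nearest to an exclusive region, the 2 members of each list of functions with the smallest p, and regions exclusive in both sexes. The regions and lists were chosen with earlier results of these data known. Alternatives varied the overlap, minimum width, gap, window, scaling, log scale, filter, replicate block and libraries.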

Additional observations from a re-analysis of the deposited data

How the results depend on the processing

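With 2 or more libraries of 1 diet and none of the other, 1836 HFD-exclusive and 479 LFD-exclusive regions were counted, and with peaks covering 50% of a region 607 HFD-exclusive regions. Leaving out a library loosens the rule by construction and gave 730 to 1018 and 90 to 219. Of the 389 and 45 regions, 222 and 19 were still called at 50% cover, 187 and 20 with peaks of at least 1000 bp, and 308 and 37 after merging peaks less than 1000 bp apart. Of the named regions, 6 of 12 and 2 of 6 were still called at 50% cover.

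In other libraries, subtracting the share at regions of 3 libraries in other combinations left 1.63 points for HFD-exclusive regions in recipients, and turned LFD-exclusive regions to -3.76 points in males and -5.20 in recipients. LFD-exclusive regions in recipients differed by 11.1 points at 50% cover and 12.1 points with 2 or more libraries, both past the unadjusted threshold, and in H3K4me1 by 2.44 points with 2 or more libraries. Leaving out a library gave -1.48 to 4.07 points for LFD-exclusive regions in males and -2.96 to 0.37 in H3K4me1.

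No gene passed an adjusted p of 0.05 with limma under any alternative. With the replicate number as a block the counts stayed at 0, with 928 and 109 genes at an unadjusted p under 0.05. The correlations of deviations of equal numbers were 0.119, 0.0617 and 0.00455, and the samples share only a number. The 50 kb window gave 2171 and 83 such genes. DESeq2 called 2 genes higher and 2 lower in RNA. The direction of the difference turned for Fasn after scaling (-0.10 kb), in a 5 kb window (-0.13 kb) and without HFD replicate 1 (-0.17 kb, against up to 0.73 kb), for Mafk (-0.12 kb) after scaling, and in a 50 kb window for Cyp2c55 (-0.0667 kb), Mcm5 (-0.0257 kb) and Oas1a (1.53 kb). The cause was not tested.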
